A study of Mus musculus with 72 samples.

Results

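The livers compared here came from female mice held under circadian misalignment and collected at 2 labelled clock times, 08:00 and 20:00. They make up 6 of the 72 RNA-seq libraries of a study of male and female mice under a control or a misaligned schedule, sampled at 6 clock times. All columns for females, misaligned, at 20:00 (n = 3) were set against all columns for females, misaligned, at 08:00 (n = 3), so the choice used labels only and no measured value. The animals of all groups used here were wild-type C57bl6 mice of 8 to 16 weeks, housed under 12 h of light and 12 h of dark, and every group, controls included, was moved from chow to a diet with 42% of calories from fat when the schedules began. Females on the control schedule at the same clock times (3 livers each) and misaligned males (3 livers each) were used for comparison. The labels give the 3 libraries of a group as biological replicates of whole liver, and they do not give the schedule itself, so the position of 08:00 and 20:00 within the light cycle of the misaligned animals is not stated here.

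In liver, as in most tissues, the clock is a loop of transcription factors. BMAL1 (gene Arntl) with CLOCK or NPAS2 activates genes for PER, CRY and CIART proteins, which repress the activators, and a further loop of REV-ERB repressors and ROR activators acts on Arntl itself. The same activators drive the PAR bZIP factors DBP, TEF and HLF, which compete with the repressor NFIL3 for D-boxes in genes of liver metabolism.

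The 6 libraries held 11706778 to 12294925 sense gene counts each, and the 36 female libraries fell in a similarly narrow range of 11600915 to 12463986. Xist was present in all 6 libraries (3167 to 3519 counts). Replicates differed by more than sampling noise, with a mean chi-square per gene of 11.4 to 58.2 between pairs within a group, so no library was a repeat of another. Levels are given as CPM, a gene's counts relative to the library total after scaling by trimmed means of M values (TMM). The library from 20:00 replicate 1 stood apart in acute phase genes, and the library from 08:00 replicate 3 in several clock genes. Values without these libraries are given beside the results they move. Hepatocyte markers summed to 110000 to 127000 CPM at 08:00 and 116000 to 122000 CPM at 20:00.

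Of 14522 genes tested, 394 (2.71%) differed between 20:00 and 08:00 by edgeR's quasi-likelihood test at a Benjamini-Hochberg adjusted p under 0.05, and these are the genes named as called below. At 20:00, 222 genes were higher (1.53% of those tested) and 172 were lower (1.18%). The median absolute difference of the called genes was 1.00 on the log2 scale, and 197 of them differed by at least 2-fold (132 higher, 65 lower). The median over all genes was a log2 difference of 0.015, and the median standard error (SE) of a gene was 0.22. Most called genes (365) were protein-coding, and 18 were processed pseudogenes, whose reads can be shared with their parent genes. Without overlap between the 3 and 3 libraries, 10.3% of all tested genes were higher at 20:00 and 9.85% were lower, and 389 of the 394 called genes were without overlap. The count of called genes fell to 229 without 08:00 replicate 1, to 250 without 20:00 replicate 2 and to 230 without 20:00 replicate 3, and lay between 278 and 351 without each of the others.

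Across the 6 clock times sampled in misaligned females, these 2 times were near the extremes of the called genes. Of the 222 genes higher at 20:00, 154 (69.4%) had their highest group mean at 20:00, 38 at 00:00 and 25 at 16:00, while 137 had their lowest mean at 08:00. Of the 172 genes lower at 20:00, 128 (74.4%) had their highest mean at 08:00 and 31 at 12:00. The genes were chosen on these 2 times, so the counts are a description and were not tested.

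Among called genes, clock genes had the largest differences in both directions. Of 20 core clock genes tested, 4 were called higher and 6 lower at 20:00, and their median log2 difference was -0.76. The shares over all tested genes were 1.53% called higher and 1.18% called lower. Among the activators, Npas2 was almost absent at 08:00, with 0.082, 0.34 and 0.18 CPM (1, 4 and 2 counts), and reached 22.0, 30.9 and 31.0 CPM at 20:00. The 3 libraries at 20:00 were all far above those at 08:00, and the fitted log2 difference was 7.06 (SE 0.51, edgeR adjusted p = 3.62e-10). Npas2 (ENSMUSG00000026077, chr1:39193731-39363236, plus strand, GRCm38) encodes the CLOCK paralogue. Arntl measured 1.65, 2.38 and 9.79 CPM at 08:00 and 37.0, 34.9 and 36.9 CPM at 20:00, a log2 difference of 2.99 (SE 0.41, adjusted p = 3.49e-05). The highest value at 08:00 was that of replicate 3, and without it the log2 difference of Arntl was 4.17 (adjusted p = 6.05e-08). That of Npas2 was 7.65 without 08:00 replicate 2. Clock rose less, from 14.2, 13.7 and 17.6 CPM to 36.4, 30.6 and 32.1 CPM (log2 1.12, SE 0.14). Arntl2, a BMAL1 paralogue, stayed under 1 CPM in all 6 libraries, and its difference was not called (log2 0.37, SE 0.57, adjusted p = 0.851; log2 -0.10 without 08:00 replicate 3). In bulk liver, a change in the number of cells of a type and a change in RNA per cell cannot be told apart.

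In the negative limb, 2 of 8 genes were called, and both were lower at 20:00. Per3 (chr4:151003652-151044665) measured 77.2, 76.0 and 44.6 CPM at 08:00 and 2.77, 5.51 and 3.52 CPM at 20:00 (log2 -4.06, SE 0.38, adjusted p = 1.11e-07). Ciart, a repressor of CLOCK and BMAL1, fell from 19.3, 17.6 and 8.72 CPM to 0.605, 0.324 and 1.04 CPM (log2 -4.51, SE 0.63, adjusted p = 3.77e-05). For each gene the groups were widely separated, and 08:00 replicate 3 was the lowest library of its group. Without it the log2 differences were -4.28 for Per3 and -4.79 for Ciart. Per2 was lower without overlap but scattered at 20:00, with 68.7, 57.2 and 94.2 CPM against 10, 45.6 and 24.4 CPM, and it was not called (log2 -1.46, SE 0.45, adjusted p = 0.0825). Without 20:00 replicate 2, the highest of its group, Per2 was called (log2 -2.09, adjusted p = 0.0204), as it was by DESeq2 (adjusted p = 0.033) and limma-voom (0.0372). Cry2 measured 60.8, 56.9 and 61.2 CPM against 25.8, 41.1 and 42.8 CPM and missed the threshold in edgeR (log2 -0.70, adjusted p = 0.051). Cry2 was called by DESeq2 (adjusted p = 0.0266), by limma-voom (0.0466), with scaling by total counts (0.0404) and in the MAX counts (0.043). Per1 was not called in edgeR's fit of 36 libraries (log2 -0.86, adjusted p = 0.405) and was called in the fit of the 6 libraries alone (0.0264). Cry1 overlapped between the groups, because 08:00 replicate 3 (30.0 CPM) exceeded 20:00 replicate 1 (28.4 CPM), and without that library at 08:00 its log2 difference was 1.27 (adjusted p = 0.0656) in place of 0.81 (adjusted p = 0.247). Bhlhe40 and Bhlhe41, repressors that bind E-boxes, also overlapped, at 138 to 269 CPM and at 0 to 0.934 CPM.

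Of the nuclear receptors of the second loop, Nr1d2 (REV-ERB beta) was lower at 20:00, with 91.1, 78.7 and 51.8 CPM against 15.3, 6.97 and 12.6 CPM (log2 -2.67, SE 0.26, adjusted p = 1.21e-07). Its paralogue Nr1d1 (REV-ERB alpha) spread over a wide range at 20:00, with 17.7, 2.51 and 31.4 CPM against 41.9, 66.3 and 24.4 CPM at 08:00. The 2 groups overlapped and the difference was not called (log2 -1.36, SE 0.53, adjusted p = 0.21). Rora, a ROR activator, overlapped too. It stayed at 33.1 to 45.6 CPM with a log2 difference of -0.05, which turned positive without 08:00 replicate 1 (0.012) or 20:00 replicate 2 (0.08).

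The 3 PAR bZIP factors were all lower at 20:00 and their repressor was higher. Dbp (chr7:45705088-45710203) measured 56.3, 117 and 17.3 CPM at 08:00 and 1.30, 1.86 and 0.641 CPM at 20:00, the most negative log2 difference of any gene tested (-5.64, SE 0.60, adjusted p = 1.47e-06). Its 3 libraries at 08:00 differed among themselves more than those of Tef, and replicate 3 was again the lowest. The log2 difference of Dbp was -6.09 without 08:00 replicate 3 and -4.86 without 08:00 replicate 2, the highest of its group. Tef fell from 274, 264 and 208 CPM to 41.5, 51.2 and 35.1 CPM (log2 -2.54, SE 0.20, adjusted p = 8.30e-10). Hlf moved least, from 73.5, 80.5 and 60.9 CPM to 42.1, 38.9 and 41.6 CPM (log2 -0.81, SE 0.16). Nfil3, the repressor, was higher at 20:00 in every library, with 75.6, 48.0 and 63.2 CPM against 19.3, 14.3 and 34.3 CPM (log2 1.46, SE 0.33, adjusted p = 0.00955). Its call was lost without 08:00 replicate 1, 08:00 replicate 2 or 20:00 replicate 1, with adjusted p of 0.0727, 0.0698 and 0.054.

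**Figure D1:**
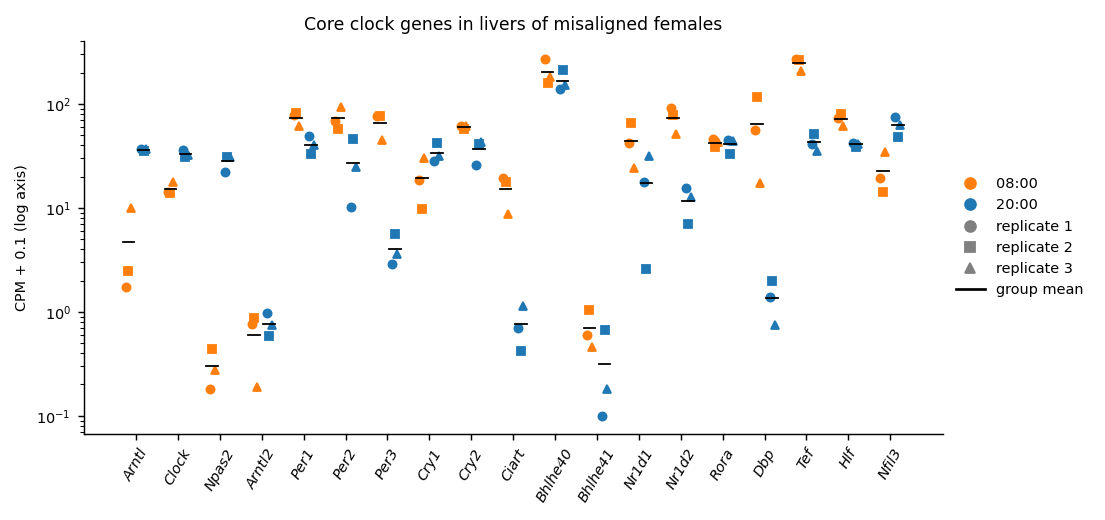
Levels of core clock genes in each of the 6 livers of misaligned females, as CPM + 0.1 on a log axis, orange for 08:00 and blue for 20:00, with marker shapes for replicates and lines for group means. Npas2, Arntl, Clock and Nfil3 sat higher at 20:00, Per3, Ciart, Nr1d2, Dbp, Tef and Hlf sat lower, and Nr1d1 and Rora overlapped.

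Promoters of the called clock genes are shown because some of them carry the elements named above, in 3 genes that fell and 2 that rose. RefSeq promoters (GRCm38.p6, 250 bases before to 50 bases after the start) matched 10430 of 14520 tested gene symbols. The motifs searched on both strands were the E-box CACGTG, the D-box TTANGTAA and the ROR and REV-ERB element core TAGGTCA, which do not overlap in the windows shown. Capitals mark every match to these motifs. Ciart (chr3:95882179-95882478, minus strand) and Tef (chr15:81802423-81802722, plus strand), both lower at 20:00, hold E-boxes. Per3 (chr4:151044616-151044915, minus strand), also lower, holds 2 D-boxes. Arntl (chr7:113207261-113207560, plus strand) and Nfil3 (chr13:52980990-52981289, minus strand), both higher, hold the ROR and REV-ERB element core, in Nfil3 on the opposite strand.
Ciart: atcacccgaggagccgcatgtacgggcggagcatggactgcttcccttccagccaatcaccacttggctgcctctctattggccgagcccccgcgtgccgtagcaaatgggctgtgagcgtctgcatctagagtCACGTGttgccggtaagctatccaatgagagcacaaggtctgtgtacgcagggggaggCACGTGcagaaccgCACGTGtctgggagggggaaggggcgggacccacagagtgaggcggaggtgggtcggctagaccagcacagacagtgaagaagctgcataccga
Tef: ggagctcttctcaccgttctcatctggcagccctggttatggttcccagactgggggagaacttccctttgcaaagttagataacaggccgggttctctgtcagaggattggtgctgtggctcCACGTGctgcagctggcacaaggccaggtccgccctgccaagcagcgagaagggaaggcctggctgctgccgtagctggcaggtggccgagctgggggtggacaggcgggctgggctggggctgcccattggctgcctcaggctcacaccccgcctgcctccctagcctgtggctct
Per3: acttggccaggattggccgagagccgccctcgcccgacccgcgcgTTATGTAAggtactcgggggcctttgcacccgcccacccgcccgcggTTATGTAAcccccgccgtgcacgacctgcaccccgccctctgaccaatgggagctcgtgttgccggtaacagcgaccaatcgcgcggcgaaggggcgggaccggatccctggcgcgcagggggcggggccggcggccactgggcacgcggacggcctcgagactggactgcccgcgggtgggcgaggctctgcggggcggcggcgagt
Arntl: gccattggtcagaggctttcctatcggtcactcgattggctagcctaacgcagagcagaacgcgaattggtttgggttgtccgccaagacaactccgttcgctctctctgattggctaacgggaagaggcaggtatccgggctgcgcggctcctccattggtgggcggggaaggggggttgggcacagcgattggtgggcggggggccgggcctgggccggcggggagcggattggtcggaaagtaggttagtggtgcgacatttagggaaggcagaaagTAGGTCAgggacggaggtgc
Nfil3: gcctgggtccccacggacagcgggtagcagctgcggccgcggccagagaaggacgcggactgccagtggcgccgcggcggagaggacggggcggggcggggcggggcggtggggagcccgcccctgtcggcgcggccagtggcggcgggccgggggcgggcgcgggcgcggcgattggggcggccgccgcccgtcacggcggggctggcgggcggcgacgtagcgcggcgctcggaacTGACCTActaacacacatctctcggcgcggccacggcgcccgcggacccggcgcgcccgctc
The windows of the other called clock genes held no match to these letters. Over 13352 promoters of tested genes, 9.66% held the E-box, 1.62% the D-box and 2.1% the ROR and REV-ERB element core. Among promoters of genes lower at 20:00, 28 of 178 (15.7%) held the E-box and 10 (5.62%) the D-box, and 5 (2.81%) the ROR and REV-ERB element core. Among promoters of genes higher at 20:00, 14 of 202 (6.93%) held the E-box, 3 (1.49%) the D-box and 10 (4.95%) the ROR and REV-ERB element core. The short heat shock motif GAANNTTC was held by 5.86% of all promoters, 5.45% of those of higher genes and 5.06% of those of lower genes. The sterol element core TCACCCCA was held by 1.57%, 0.99% and 2.81%. Shares are descriptions of letters in a window and were not tested.

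Of 24 clock kinases, ubiquitin ligases and outputs tested, 6 were higher and 7 lower at 20:00, where 1.53% and 1.18% of all tested genes were. Usp2, a deubiquitinase that acts on clock proteins, fell from 65.0, 72.3 and 56.6 CPM to 5.79, 4.62 and 5.28 CPM (log2 -3.63, SE 0.48, adjusted p = 2.10e-05). Wee1, a kinase that holds cells before mitosis, fell from 27.5, 19.9 and 17.5 CPM to 3.8, 4.70 and 3.68 CPM (log2 -2.41, SE 0.28). The replicates of these genes were tight at 20:00. Nampt, the rate-limiting enzyme of NAD salvage, fell with little spread in either group, from 141, 135 and 143 CPM to 59.4, 55.8 and 61.7 CPM (log2 -1.24, SE 0.15, adjusted p = 2.67e-06). Upp2, a uridine phosphorylase, fell from 401, 631 and 450 CPM to 80.9, 69.0 and 95.0 CPM (log2 -2.60, SE 0.54). Clpx, a subunit of a mitochondrial protease, rose from 74.5, 69.5 and 114 CPM to 358, 307 and 312 CPM (log2 1.92, SE 0.25, adjusted p = 1.35e-05). Cdkn1a, the cell-cycle inhibitor p21, rose from 1.98, 13.1 and 14.9 CPM to 80.4, 31.7 and 72.9 CPM (log2 2.63, SE 0.64, adjusted p = 0.0203), and its call was lost without 08:00 replicate 1 (adjusted p = 0.114), 20:00 replicate 1 (0.0708) or 20:00 replicate 3 (0.0698). The E3 ligase gene Rnf125, the largest difference that was not called, measured 9.72, 5.86 and 10.8 CPM against 25.4, 20.8 and 20.0 CPM (log2 1.33, SE 0.76, adjusted p = 0.469). Rnf125 was called in edgeR's fit of the 6 libraries alone (adjusted p = 0.0121).

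Beyond the clock lists, the genes with the largest increases had varied known functions. Loxl4, a lysyl oxidase of the extracellular matrix, rose from 1.56, 0.340 and 0.890 CPM to 4.24, 16.6 and 18.6 CPM (log2 3.8, SE 0.58, adjusted p = 1.24e-04; log2 4.41 without 08:00 replicate 1). Spon2, a secreted matrix protein, rose from 3.79, 4.93 and 1.6 CPM to 31.1, 27.8 and 47.2 CPM (log2 3.35, SE 0.42, adjusted p = 7.87e-06). Neither gene overlapped between the groups. Dhrs9, a dehydrogenase of retinoids and steroids, stayed low, at 0.823, 0.680 and 1.33 CPM against 6.22, 6.16 and 8.41 CPM (log2 2.87, SE 0.41). Hr, a corepressor of nuclear receptors, reached 3.46, 7.53 and 10.8 CPM from 1.07, 0.849 and 0.801 CPM (log2 2.99, SE 0.64, adjusted p = 0.00662), and its adjusted p was 0.0506 without 20:00 replicate 3. Among the genes that fell most was Cux2, a transcription factor with female-biased expression in mouse liver, at 39.9, 75.1 and 26.1 CPM against 5.36, 11.3 and 14.7 CPM (log2 -2.16, SE 0.60, adjusted p = 0.0486). That call was close to the threshold and was lost without any library but 08:00 replicate 3, with adjusted p from 0.0912 to 0.203 without the others. Adjusted p over all 18 alternatives for Cux2 ranged from 0.00264 to 0.285.

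**Figure D2:**
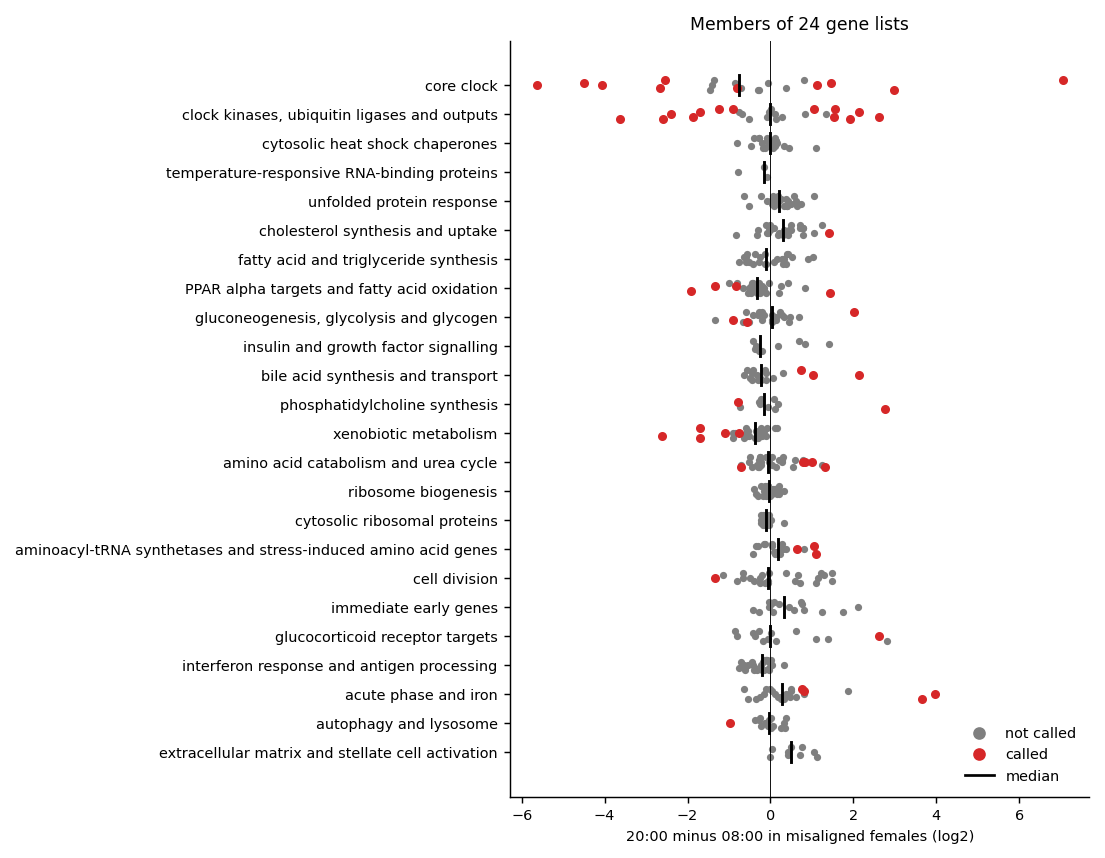
Log2 difference between 20:00 and 08:00 in misaligned females for the tested members of 24 gene lists, 1 point a gene, red where called and grey where not, with a black line at each list's median. The core clock and output lists spread from -5.64 to 7.06, while lists such as ribosomal proteins stayed close to 0.

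The called genes of drug and xenobiotic metabolism were all lower at 20:00. Of 29 tested, 0 were called higher and 5 lower, and the median log2 difference was -0.38 against 0.015 over all genes. No list member was higher without overlap, and 15 were lower, where 9.85% of all tested genes were lower without overlap and 1.18% were called lower. Cyp2a5 (chr7:26835305-26843548), a cytochrome P450 that oxidises coumarin and nicotine, fell from 2203, 2043 and 1972 CPM to 267, 425 and 320 CPM (log2 -2.62, SE 0.39, adjusted p = 1.23e-04), the groups being far apart. Its near-identical neighbour Cyp2a4 fell from 1168, 945 and 2293 CPM to 292, 580 and 489 CPM (log2 -1.69, SE 0.37, adjusted p = 0.00749). Reads may be divided between these copies, so each value is uncertain, and the call for Cyp2a4 was lost without 08:00 replicate 3 (adjusted p = 0.0862) or 20:00 replicate 1 (adjusted p = 0.0638). Alas1, the rate-limiting enzyme of haem synthesis, measured 1113, 1213 and 502 CPM against 320, 336 and 220 CPM (log2 -1.69, SE 0.44, adjusted p = 0.0308). Ces1d, a carboxylesterase, measured 3065, 2091 and 2468 CPM against 1476, 1620 and 1402 CPM (log2 -0.76, SE 0.20, adjusted p = 0.0289). Cyp2e1, named after its values were seen as the last of the 5, had a log2 difference of -1.11 (adjusted p = 0.0407). The list kept 2 lower calls without 08:00 replicate 1, 20:00 replicate 2 or 20:00 replicate 3 and 3 without each of the others. The adjusted p of Alas1 lay between 0.0804 and 0.174 without 08:00 replicate 1 or 2 or any library from 20:00, and that of Ces1d between 0.0605 and 0.207 without any library but 08:00 replicate 2.

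Among 33 targets of PPAR alpha and genes of fatty acid oxidation, 3 were called lower and 1 higher (median log2 -0.33), and 12 were lower without overlap (9.85% of all tested genes). Over all tested genes, 1.18% were called lower and 1.53% higher. Acot3 and Acot4, thioesterases that release fatty acids from coenzyme A and belong to a cluster of similar genes, both fell. Acot3 measured 369, 451 and 247 CPM against 91.9, 86.7 and 102 CPM (log2 -1.93, SE 0.32, adjusted p = 4.25e-04), and Acot4 had a log2 difference of -1.35 (SE 0.22, adjusted p = 3.03e-04). Cpt1a, which admits fatty acids to mitochondria, fell from 526, 676 and 513 CPM to 376, 297 and 290 CPM (log2 -0.83, SE 0.17, adjusted p = 0.00294). Pdk4, the kinase that closes pyruvate dehydrogenase, moved the other way, from 19.9, 16.9 and 37.9 CPM to 61.3, 54.8 and 84.9 CPM (log2 1.43, SE 0.32, adjusted p = 0.0096). The call for Pdk4 was lost without 08:00 replicate 1 (adjusted p = 0.0819), 08:00 replicate 2 (0.0699) or 20:00 replicate 3 (0.0751). The lipid droplet gene Cidec scattered from 2.96 to 30.6 CPM at 08:00 and was not called (log2 -0.99, adjusted p = 0.751), with a log2 difference of 0.44 without 08:00 replicate 2.

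Of 25 genes of glucose and glycogen metabolism, 1 was higher and 2 were lower (median log2 0.043). Over all tested genes, 1.53% were called higher and 1.18% lower. Ppp1r3c, which targets a phosphatase to glycogen, rose from 43.8, 15.6 and 43.2 CPM to 135, 162 and 119 CPM (log2 2.02, SE 0.49, adjusted p = 0.0196). Gys2, the liver glycogen synthase, fell from 264, 189 and 185 CPM to 114, 120 and 108 CPM (log2 -0.90, SE 0.16, adjusted p = 8.67e-04). In neither gene did the groups overlap. Slc2a2, the glucose transporter GLUT2, had a log2 difference of -0.56 (SE 0.16, adjusted p = 0.044), and its call was lost without any library but 08:00 replicate 2 (adjusted p from 0.0799 to 0.315). The call for Ppp1r3c was lost without 08:00 replicate 2 (adjusted p = 0.0987) or 20:00 replicate 2 (0.0738). Ppp1r3g and the secreted growth factor binder Igfbp1 differed by -1.33 and 1.42 on the log2 scale with overlapping groups and were not called (adjusted p = 0.679 and 0.453).

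In bile acid synthesis and transport, 3 of 18 genes were called higher (1.53% of all tested genes) and 0 lower (1.18%), although the median of the list was -0.24. Cyp8b1, which sets the share of cholic acid, rose from 38.3, 38.6 and 121 CPM to 216, 381 and 267 CPM (log2 2.13, SE 0.50, adjusted p = 0.015). Hsd3b7, an enzyme of an early step, rose from 41.2, 81.4 and 56.7 CPM to 124, 126 and 117 CPM (log2 1.03, SE 0.19, adjusted p = 9.55e-04). Abcb11, the bile salt export pump, rose from 228, 294 and 376 CPM to 495, 484 and 531 CPM (log2 0.75, SE 0.19, adjusted p = 0.0275). Every liver at 20:00 was above every liver at 08:00 for these 3 genes, while 5 of the 18 were lower without overlap. Over all tested genes, 10.3% were higher and 9.85% lower without overlap. The log2 difference of Cyp8b1 was 2.90 without 08:00 replicate 3. Cyp8b1 lost its call without 08:00 replicate 1 (adjusted p = 0.111), 08:00 replicate 2 (0.0845) or 20:00 replicate 2 (0.0793), and Abcb11 without any library but 08:00 replicate 3 (adjusted p from 0.0628 to 0.194). The sterol exporter gene Abcg5, not called, had a log2 difference of -0.64 (adjusted p = 0.193).

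In phosphatidylcholine synthesis, Chka, the choline kinase that starts the pathway, rose from 21.1, 23.6 and 45.8 CPM to 218, 176 and 219 CPM (log2 2.76, SE 0.28, adjusted p = 2.20e-07), whereas Gde1, a glycerophosphodiesterase, fell by 0.77 on the log2 scale (SE 0.16, adjusted p = 0.00418). These were the 2 called of 10, with a median of -0.15, where 2.71% of all tested genes were called. Of 26 genes of cholesterol synthesis and uptake, Insig2, which retains the sterol sensor in the endoplasmic reticulum, was the 1 called, higher at 413, 441 and 527 CPM against 87.2, 160 and 269 CPM (log2 1.42, SE 0.30, adjusted p = 0.00476). That 1 call of 26 stands beside the same 2.71% of all tested genes. The enzymes of cholesterol synthesis were not called and had a median of 0.32. Sqle, the squalene epoxidase, ranged from 5.61 to 64.5 CPM with overlap (log2 1.25, adjusted p = 0.59). Of 25 genes of fatty acid and triglyceride synthesis, 0 were called by edgeR, DESeq2 or limma-voom (5 at an unadjusted p under 0.05 in edgeR, median log2 -0.10), among them the elongase gene Elovl5 (log2 1.02, SE 0.36, adjusted p = 0.148). Of all 14522 tested genes, 2045 were under that unadjusted threshold.

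Of 33 genes of amino acid catabolism and the urea cycle, 4 were called higher (1.53% of all tested genes) and 1 lower (1.18%). Cbs, which commits homocysteine to cysteine synthesis, rose from 235, 252 and 290 CPM to 514, 505 and 538 CPM (log2 1.00, SE 0.16, adjusted p = 2.50e-04). Amt and Gldc, components of the glycine cleavage system, had log2 differences of 0.84 (adjusted p = 5.85e-04) and 1.30 (adjusted p = 0.0115), and Kynu, the kynureninase, 0.80 (adjusted p = 0.00589). The log2 difference of Gldc was 1.91 without 08:00 replicate 3. Its call was lost without 08:00 replicate 1 (adjusted p = 0.096), 08:00 replicate 2 (0.0695) or 20:00 replicate 2 (0.0555), and that for Kynu without 08:00 replicate 1 (0.0764). Among 22 aminoacyl-tRNA synthetases and stress-induced amino acid genes, 3 were higher and 0 lower (median log2 0.17), and 10 were higher without overlap (10.3% of all tested genes). The 3 called were Tars, the threonyl-tRNA synthetase (86.7, 68.0 and 121 CPM against 158, 214 and 195 CPM, log2 1.04, adjusted p = 1.39e-04), Cars, the cysteinyl-tRNA synthetase (log2 0.63, adjusted p = 0.0032), and the factor Atf5 (log2 1.10, adjusted p = 4.21e-04).

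Several other lists held 0 called genes by edgeR and by limma-voom, and DESeq2 called 1 gene in them, in ribosome biogenesis. Heat shock chaperones (25 tested, median log2 -0.0090), cold-induced RNA-binding proteins (3, -0.16) and ribosomal proteins (24, -0.11) had 2, 1 and 1 genes at an unadjusted p under 0.05. Ribosome biogenesis (28, median -0.040) had 3, insulin and growth factor signalling (11, -0.25) had 1, and immediate early genes (16, 0.32) had 3. The unfolded protein response (30, median 0.20) had 7, interferon response genes (27, -0.20) had 4, and extracellular matrix genes (9, 0.49) had 2. Over all tested genes, 2045 of 14522 had an unadjusted p under 0.05 in edgeR. In the unfolded protein response list 10 of 30 genes were higher without overlap (10.3% of all tested genes), all among chaperones and degradation genes, such as Sdf2l1, a chaperone cofactor (7.57, 6.46 and 8.63 CPM against 15.4, 16.0 and 15.6 CPM, log2 1.05, adjusted p = 0.135). Sdf2l1 was called in edgeR's fit of the 6 libraries alone (adjusted p = 0.00749) and of the 18 misaligned female libraries (0.027). In the interferon list 9 of 27 were lower without overlap (9.85% of all tested genes), with the largest difference in Ifit3 (log2 -0.75, adjusted p = 0.154). In the cell division list 1 of 24 was called, Tk1, thymidine kinase, which fell from 53.4, 43.8 and 50.6 CPM to 17.5, 22.0 and 18.7 CPM (log2 -1.35, SE 0.29, adjusted p = 0.007). In the autophagy list Bnip3, a mitophagy receptor, fell by 0.97 on the log2 scale (SE 0.16, adjusted p = 4.03e-04) as the 1 of 15 called. Cdkn1a, described above, was the 1 of 14 glucocorticoid receptor targets called. Beside these single calls, 2.71% of all tested genes were called.

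The acute phase list held 4 higher and 0 lower of 24 genes (median log2 0.29), and 0 of them were called without 20:00 replicate 1. With all libraries, 1.53% of all tested genes were called higher. Saa2, a serum amyloid, measured 21.3, 44.0 and 39.8 CPM at 08:00 and 1555, 44.1 and 44.4 CPM at 20:00. Its neighbour Saa1, a near-identical copy, measured 43.5, 73.6 and 53.8 CPM and 2001, 63.9 and 71.6 CPM. In both genes the other libraries at 20:00 lay at the level of those at 08:00. The log2 differences were 3.97 (SE 0.99, adjusted p = 0.0265) for Saa2 and 3.64 (SE 0.93, adjusted p = 0.0289) for Saa1. Without 20:00 replicate 1 they were 0.33 (adjusted p = 0.891) and 0.25 (adjusted p = 0.911). Lcn2, a siderophore-binding protein, and Orm2, an acid glycoprotein, showed the same library, with 592 against 28.1 and 36.6 CPM and 271 against 24.5 and 27.0 CPM at 20:00, and neither was called (adjusted p = 0.0842 and 0.129). Orm2 had a log2 difference of -0.20 without it. The fibrinogen chains Fga and Fgg were higher in that library by a smaller factor, at 9519 and 6989 CPM, with 4707 and 5136 CPM and 3566 and 3937 CPM in the others, all above the 08:00 libraries at 3364 to 4076 and 2582 to 2874 CPM. Their log2 differences of 0.77 (adjusted p = 0.0424) and 0.80 (adjusted p = 0.0341) were 0.37 (adjusted p = 0.43) and 0.43 (adjusted p = 0.35) without it. The 4 calls were also lost without each library from 08:00, at adjusted p from 0.0726 to 0.15. Lcn2 was called without 20:00 replicate 2 (adjusted p = 0.0336) or replicate 3 (0.0443), and Orm2 without 20:00 replicate 2 (0.0456). The median of the list was -0.11 without 20:00 replicate 1, with 0 of 24 genes called. With all 6 libraries, DESeq2 called 4 genes of the list and limma-voom called 0.

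**Figure D3:**
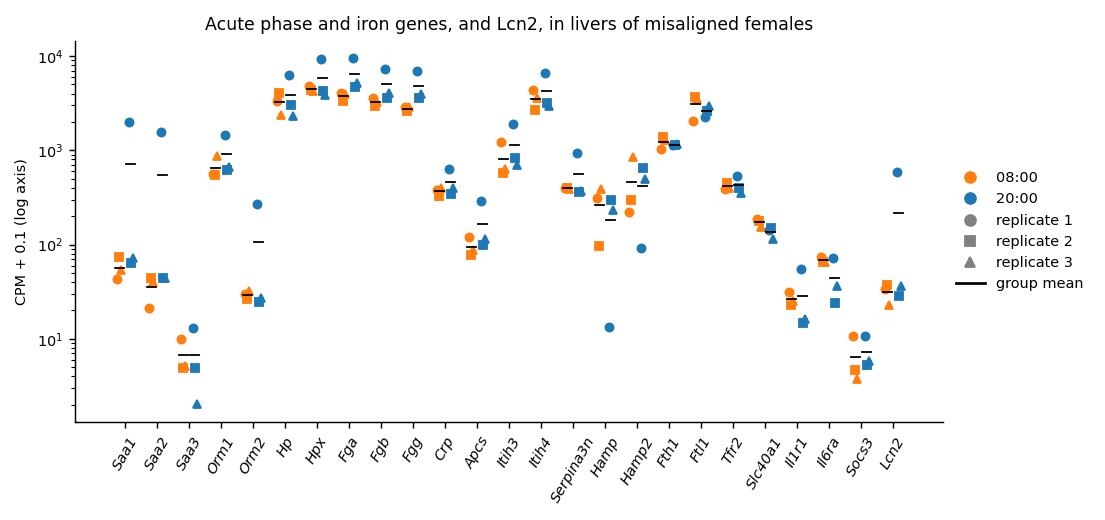
Levels of 24 acute phase and iron genes and of Lcn2 in each liver, as CPM + 0.1 on a log axis, orange for 08:00 and blue for 20:00, with marker shapes for replicates and lines for group means. The blue circle of 20:00 replicate 1 lies apart from the other 5 libraries in Saa1, Saa2, Orm2 and Lcn2.

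Of 11 marker lists, the cholangiocyte list alone held a called gene, Sox9, a factor of bile duct cells, at 2.14, 1.95 and 2.14 CPM against 5.71, 7.53 and 7.21 CPM (log2 1.71, SE 0.36, adjusted p = 0.00502). That 1 call over all marker lists stands beside 2.71% of all tested genes called. The 8 cholangiocyte markers summed to 92.5 to 136 CPM at 08:00 and 149 to 204 CPM at 20:00, with no overlap, and in control females to 72.8 to 144 and 68.7 to 104 CPM. Of single tested genes, 10.3% were higher at 20:00 without overlap. Kupffer cell markers summed to 809 to 966 CPM at 08:00 and 573 to 843 CPM at 20:00, endothelial markers to 485 to 543 and 540 to 572 CPM, and stellate cell and fibroblast markers to 697 to 800 and 719 to 934 CPM. Neutrophil and monocyte markers summed to 7.48 to 20.0 CPM at 08:00 and 7.53 to 19.0 CPM at 20:00, and erythroid markers to 59.0 to 179 and 56.3 to 371 CPM. Ly6g, Gp1bb, Lep, Plin1, Cpa1 and Ctrb1, from the neutrophil, platelet, adipocyte and exocrine pancreas lists, had 0 counts in all 6 libraries. For each, 3 counts, or 0.256 CPM in the smallest library, is the limit that 0 allows. Other members of these lists had counts. Platelet markers summed to 3.29 to 5.85 CPM at 08:00 and 3.68 to 5.83 CPM at 20:00. Adipocyte markers summed to 0.267 to 3.23 and 1.05 to 1.68 CPM, and exocrine pancreas markers to 6.26 to 8.28 and 5.62 to 7.61 CPM. The part of these markers in the matrix genes and in the other results was not tested.

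Counts in introns, a measure of unspliced RNA, gave the same direction for most called genes. Of 9087 genes with enough intron counts, 93 (1.02%) were called between 20:00 and 08:00. Intron counts come from the same libraries and share their scatter. Of 321 called genes with an intron test, 313 (97.5%) had the same sign in introns, against 65.8% of all genes, and 67 were called in both, all in the same direction. The count of 93 was 38 without 08:00 replicate 1, 60 without 08:00 replicate 2 and 57 without 20:00 replicate 1. Introns of Npas2 held 0, 0 and 3 counts at 08:00 and 35, 65 and 54 at 20:00 (log2 5.48, SE 0.70, adjusted p = 3.17e-05). Introns of Arntl held 9, 3 and 26 counts against 86, 116 and 98 (log2 2.93, SE 0.39). Tjp3, a tight junction protein, was called in introns (log2 1.98, SE 0.28) and in gene counts (log2 1.75, SE 0.31). Clock differed from these genes, with a log2 difference of 1.12 in gene counts and 0.078 (adjusted p = 0.993) in introns. The predicted gene Gm31333 was called in introns (39, 57 and 18 counts against 179, 137 and 200, log2 2.14, adjusted p = 7.95e-05) and not in gene counts (log2 0.35, adjusted p = 0.843).

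Reads on the strand opposite to a gene gave 3 calls among 544 tested genes (0.551%). The predicted gene Gm45819 held 69, 44 and 55 antisense counts at 08:00 and 4, 4 and 3 at 20:00 (log2 -3.93, SE 0.63, adjusted p = 2.71e-04). Antisense counts over Vps13d (1, 1 and 0 against 8, 11 and 12, adjusted p = 0.00965) and Rab36 (3, 2 and 2 against 22, 18 and 10, adjusted p = 0.0272) were higher at 20:00, while the sense counts of these genes were not called. The counts were small. Vps13d lost its call without 08:00 replicate 1 (adjusted p = 0.0532) or replicate 3 (0.0752), and Rab36 without any library but 20:00 replicate 3 (adjusted p from 0.0988 to 0.217), while Gm45819 was called in the 17 alternatives that tested it. It was not tested under a minimum mean of 5 CPM, which left 38 genes and called 3 others, Tardbp, 9430064I24Rik and Gm10252, named after their values were seen.

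The same clock times in control females gave a similar count, 453 called genes (3.12%), with 251 higher (1.73%) and 202 lower (1.39%). The 2 comparisons share no library. In both, 202 genes were called, which is 51.3% of the genes called in misaligned females and 44.6% of those called in controls, and all 202 had the same direction. Of the genes called in misaligned females, 379 (96.2%) had the same sign in controls, against 64.2% of all genes tested. Among the 20 clock genes 6 were higher and 8 lower in controls. Arntl rose by 5.11 on the log2 scale in controls and by 2.99 in misaligned females (4.17 without 08:00 replicate 3), with a schedule difference that was not called (log2 -2.12, adjusted p = 0.999). Nr1d1 fell by 4.25 in controls and had a difference of -1.36 in misaligned females, and Per3 had log2 differences of -2.78 and -4.06. Cry1 was called in controls (log2 2.48) and had a difference of 0.81, not called, in misaligned females. The control count was 225 without control 08:00 replicate 2 and 261 without control 20:00 replicate 1.

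**Figure D4:**
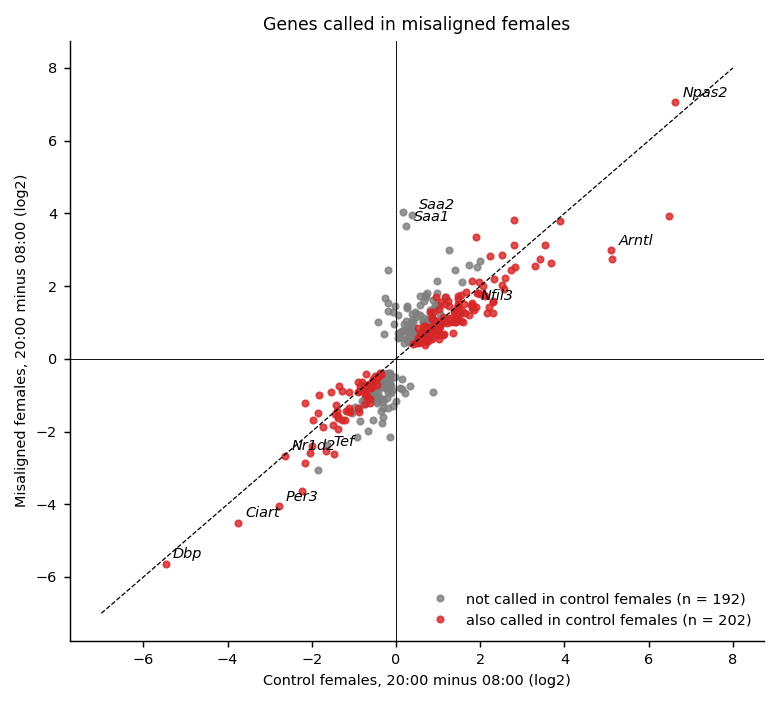
Log2 difference between 20:00 and 08:00 of the 394 genes called in misaligned females (vertical axis) against the same difference in control females (horizontal axis), red for the 202 called in both and grey for the other 192, with a dashed line of equality. All red points lie in the lower left or upper right, and Saa1 and Saa2 (log2 3.64 and 3.97) lie close to 0 in controls (0.24 and 0.38).

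The difference between schedules was tested directly. In the test of the change in misaligned minus control females, 0 of 14522 genes (0%) were called by edgeR, 642 had an unadjusted p under 0.05, and limma-voom also called 0. DESeq2 called 4 genes, among them Caln1, Hacl1 and Fgf1, which were named after their values were seen. Hacl1, an enzyme of fatty acid alpha-oxidation, had a log2 difference of 1.31 in controls and 0.22 in misaligned females, and a schedule difference of -1.09 (edgeR adjusted p = 0.151, DESeq2 adjusted p = 0.011). By edgeR, 4 genes were called without misaligned 08:00 replicate 2 and 1 without misaligned 20:00 replicate 2. Hacl1, Caln1 and Gm4076 were among those called without 08:00 replicate 2 (adjusted p = 0.0426 for each). Fgf1, a growth factor, measured 191, 183 and 216 CPM against 95.6, 110 and 99.4 CPM in misaligned females (log2 -0.95) and had a log2 difference of 0.21 in controls. The median SE of the schedule difference was 0.31 on the log2 scale, so small differences were not detectable at this depth and number of livers. Larger estimates in genes with a larger SE were not called either. They included Nr1d1 (log2 2.89, SE 0.79) and Cry1 (log2 -1.66, SE 0.49), each at an edgeR adjusted p of 0.999.

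Misaligned males, fitted with all 72 libraries, differed from misaligned females. Between the same clock times, 23 of 15066 genes (0.153%) were called in males. In the same fit of 72 libraries, 288 genes were called in misaligned females, in place of 394 in the fit of female libraries. Of the 23 called in males, 17 were among those 394, and all 17 had the opposite direction. Of the 394 genes called in females, 347 (88.1%) had the opposite sign in males, against 60.3% of 14518 genes in both fits. The sex difference of the change was called for 568 genes (3.77%), 258 of them with the larger value in females (45.4%), and for 367, 374 and 361 genes without female 20:00 replicate 3, male 08:00 replicate 3 and male 20:00 replicate 3. With scaling by total counts 557 genes were called, 346 of them with the larger value in females (62.1%), and the median over all genes moved from 0.044 to 0.21 on the log2 scale. Under that scaling the median of the males' change moved from -0.011 to -0.14. The male count of 23 changed with each library left out. It was 2 without 08:00 replicate 1 or 20:00 replicate 3, and 3 without 08:00 replicate 2. It was 5 without 08:00 replicate 3 or 20:00 replicate 2, and 40 without 20:00 replicate 1.

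For the 8 genes with the smallest p for the sex difference, the log2 differences had opposite signs in the 2 sexes. Nmrk1, a nicotinamide riboside kinase, measured 50, 51.6 and 53.6 CPM against 26.5, 23.8 and 21.1 CPM in females (log2 -1.12, SE 0.16) and 15.8 ± 2.1 (SD, n = 3) against 44.7 ± 6.8 CPM in males (log2 1.5, SE 0.22). Marveld1, a membrane protein, measured 64.5, 62.2 and 66.1 CPM against 30.3, 33.6 and 27.6 CPM in females (log2 -1.07) and 29.9 ± 1.7 against 63.9 ± 4.4 CPM in males (log2 1.10). Both were called in each sex. Mad2l2, a subunit of a DNA repair polymerase, rose in females from 5.85, 9.68 and 7.48 CPM to 28.8, 23.0 and 23.3 CPM (log2 1.71) and measured 21.4 ± 3.0 against 15.3 ± 1.8 CPM in males (log2 -0.48, adjusted p = 0.341). Dpp9, a serine protease, rose by 1.38 in females and had a log2 difference of -0.50 in males (adjusted p = 0.277). Ak4, a mitochondrial adenylate kinase, fell by 1.46 in females and had 0.57 in males (adjusted p = 0.239). The clock genes Tef, Wee1 and Per3, given above for females, had male log2 differences of 0.83, 1.03 and 1.00 (adjusted p = 0.277, 0.152 and 0.395). Per3 measured 11.7 ± 5.7 CPM at 08:00 and 23.5 ± 12 CPM at 20:00 in males, and Dbp 24.5 ± 10.4 and 42.1 ± 56.4 CPM. Usp2 was called in both sexes, lower at 20:00 in females (log2 -3.63) and higher in males (log2 2.77, adjusted p = 0.0375).

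**Figure D5:**
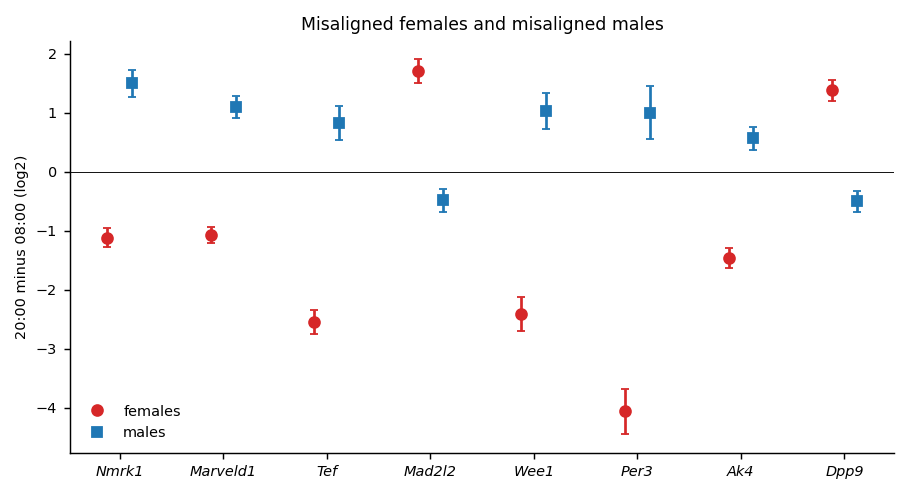
Log2 difference between 20:00 and 08:00 in misaligned females (red circles) and misaligned males (blue squares) for the 8 genes with the smallest p for the sex difference, with bars of 1 SE. Nmrk1, Marveld1, Tef, Wee1, Per3 and Ak4 lie below 0 in females and above 0 in males, and Mad2l2 and Dpp9 the other way.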

How the data were processed

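Liver polyA RNA was sequenced from stranded libraries as paired reads of 150 bp, per the labels' protocols. The submitters' processing notes name STAR 2.6.0c and GRCm38. The deposited values are read counts per gene (sense and antisense) and per intron, and the MIN tables were used. All 72 libraries held 11551524 to 12529963 sense gene counts. Whether reads were brought to a common depth before deposit is not given in the sources used here. How MIN differs from MAX is not given in the sources used here.

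Genes passing edgeR's filterByExpr (14522 of 27846) were fitted in 36 female libraries (12 groups, 24 residual degrees of freedom) with edgeR 4.0.16 in R 4.3.3, with TMM scaling and robust quasi-likelihood tests. Male and sex contrasts used all 72 libraries (15066 genes, 48 degrees of freedom). P-values were Benjamini-Hochberg adjusted over all genes, with a threshold of 0.05. limma 3.58.1 and DESeq2 1.42.0 were alternatives. Introns overlapping a shorter intron were left out (157636 of 198824 kept) and the rest summed per gene. Gene positions are of GENCODE on GRCm38. The scripts were tested on simulated counts. With 3 livers a group and 11706778 to 12294925 counts a library, the median SE of a log2 difference was 0.22.

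Named genes were the core clock list, the 10 called genes with the largest difference in each direction (at least 5 CPM, no overlap, no predicted genes), up to 4 called and 1 uncalled member of each of 24 lists, up to 8 genes of each difference between groups, and up to 4 antisense and intron calls. Not all genes that meet this rule are described. The genes and lists were chosen with earlier results of these data known. Some genes are not reported here.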

Additional observations from a re-analysis of the deposited data

Results flagged for a closer look

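In misaligned mice, 8 genes had the smallest p for a sex difference in the change from 08:00 to 20:00, tested as an interaction in edgeR's fit of 72 libraries. The values are female minus male log2 changes. They were -2.62 for Nmrk1, -2.17 for Marveld1, -3.37 for Tef, -3.44 for Wee1, -5.06 for Per3 and -2.03 for Ak4. They were 2.19 for Mad2l2 and 1.88 for Dpp9. All 8 kept their direction and their call under each of the 22 alternatives run for them. The 8 were picked by p in these same libraries, so the alternatives describe them and are not a separate test.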

How the results depend on the processing

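The 394 genes called in misaligned females became 261 in a fit of only the libraries compared, 63 when a fold above 1.5 was tested, and 229 to 351 when a library was left out. In control females the 453 became 206, 83 and 225 to 410. The schedule difference, 0 by edgeR, was 4 by DESeq2 and 0 to 4 with a library left out. The male count of 23 became 4 with no filter on low counts, 71 by DESeq2, 1 with only the libraries compared, 0 with a fold above 1.5 (1643 at an unadjusted p under 0.05 in the main edgeR test), and 2 to 40 with a library left out. The sex difference of 568 became 364 with no filter, 109 with a fold above 1.5 and 361 to 524 with a library left out. Antisense calls were 1 by DESeq2, by limma-voom and with all 72 libraries, and 1 to 3 with a library left out. Intron calls were 28 with a fold above 1.5 and 38 to 90 with a library left out; summing all introns, chosen after seeing the data, gave 80. The cause of these shifts was not tested.

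With a library left out, log2 differences changed sign for Rora (0.012 without 08:00 replicate 1), Cidec, Arntl2 and Orm2, none of them called with all libraries. Over all alternatives, their log2 differences ranged from -0.13 to 0.077 (Rora), -1.47 to 0.44 (Cidec), -0.10 to 0.78 (Arntl2) and -0.20 to 2.34 (Orm2). Of 57 called named genes, all kept their direction and 21 kept their call in every alternative. Many called named genes lost their calls in edgeR's fit of the 6 libraries alone, among them Arntl and Dbp (adjusted p = 0.11 and 0.0972). Others were Loxl4 (0.0778), Nfil3 (0.0987), Insig2 (0.148), Hsd3b7 (0.0501), Cyp8b1 (0.187), Gldc (0.248), Cdkn1a (0.252) and Saa2 (0.448), and this is not the full set. Same-numbered libraries were not treated as paired in the main fit. Their correlations of deviations were 0.10, -0.066 and 0.13, and those of other pairs were -0.20 to 0.10. With 3 libraries a group, these values cannot decide whether libraries were paired. A replicate block gave 372 called genes in misaligned females. Small changes in genes of a few counts were not detectable at this depth.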
